A study of Mus musculus with 78 samples.

Results

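The comparison set every gene measured in single blastomeres of 4-cell mouse embryos against the same gene in single blastomeres of 8-cell embryos. The gene values were FPKM, the fragments of a gene per kilobase of its length and per 1e+06 aligned fragments, one table for each stage, with 24 columns of 4-cell blastomeres and 26 columns of 8-cell blastomeres. Of the 16956 genes listed in either table, 13604 were listed in both, and 10780 passed the filter, a value above FPKM 1 in 5 or more of the 50 blastomeres, and were compared. At the edge of this filter, 396 compared genes exceeded 1 in exactly 5 blastomeres and 492 genes left out did so in exactly 4. A gene was called higher or lower at the 8-cell stage when its median of log2(FPKM+1) differed by at least 1, that is 2-fold.

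Both groups came from 1 cross. Mice with the Gt(ROSA)26Sortm1(CAG-Brainbow2.1)Cle allele, a cassette of fluorescent proteins, were mated with mice that have the transgene Tg(CAG-cre/Esr1*)5Amc and express a tamoxifen-activated Cre from the broadly active CAG promoter, and each embryo carried 1 copy of both. The embryos were flushed at the 2-cell stage at 46 hpi, hours after the last hormone injection, exposed for 2 h to 4-Hydroxytamoxifen and grown in KSOM medium to the 4-cell or 8-cell stage, and embryos with fluorescent cells were picked, so both stages had the transgenes, the drug and the culture in common. The labels give 36 blastomeres of 9 embryos at the 4-cell stage and 31 blastomeres of 4 embryos at the 8-cell stage, of which 24 from 6 embryos and 26 from 4 embryos are labelled as lineage A or B. The tables hold as many columns as these, but 5 of the 26 8-cell columns are named NA and no column names its embryo. Blastomeres of an embryo are not independent, no column name matches a label, and each stage was therefore treated as 1 sample without a test between stages. Sizes of difference, ranges over blastomeres and shares of blastomeres are given instead.

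Between these stages the mouse embryo still holds RNA that the oocyte made, while transcripts from its own genome, first switched on in strength at the 2-cell stage, take over. The 8-cell embryo is about to compact: its blastomeres flatten against one another, gain an apical surface and junctions, and later divide into an outer layer that becomes trophectoderm and an inner cell mass. Keratin 8 and keratin 18, which pair into the first intermediate filaments of the embryo, are classical products of that outer layer, and the zona pellucida and subcortical maternal complex genes are classical products of the oocyte.

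The libraries differed in how many genes they held. The number of genes above an FPKM of 1 ran from 3009 to 8276, with a median of 7155, in the 4-cell blastomeres and from 3548 to 8078, with a median of 6773, in the 8-cell blastomeres. Blastomeres with under 5500 such genes are called gene-poor here. There were 4 of them among the 4-cell and 6 among the 8-cell blastomeres, and each comparison was repeated on the 20 and 20 blastomeres left. The 6 gene-poor 8-cell columns stand side by side in the table, so the repeat may leave out most of an embryo, which the column names do not settle. The total behind the FPKM values, read from the step that a single fragment makes in low values, ran from 6.87 M to 16.9 M fragments (M, 1e+06) at the 4-cell stage and from 2.34 M to 21.7 M at the 8-cell stage. The lowest was a gene-poor 8-cell blastomere. It is kept in the main values. Without it 784 genes were higher and 1227 lower, against 704 and 1316 with it. The 8-cell blastomeres that were not gene-poor started at 14.5 M. The median total was 13.4 M in 4-cell and 17.2 M in 8-cell blastomeres, and 13.5 M and 17.2 M without gene-poor ones. For a gene of median length, FPKM 1 stood for 19.4 to 47.7 fragments in 4-cell and 6.62 to 61.6 fragments in 8-cell blastomeres. Markers of other cells were scarce. The summed FPKM of 10 cumulus cell markers ran from 0 to 3.06 in 4-cell and from 0 to 9.52 in 8-cell blastomeres, with a median of 0 in both, and that of 4 sperm markers ran from 0 to 8.79 and from 0 to 23.3, also with medians of 0. The defining cumulus genes Foxl2, Fshr and Cyp11a1 and the sperm genes Tnp1 and Tnp2 were listed in neither table.

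The median difference over the 10780 genes was 0 and their mean difference was -0.14 on the log2(FPKM+1) scale. At the 8-cell stage 704 genes were higher, 6.53% of those compared, and 1316 were lower, 12.2%. The compared genes include 3649 with a median below 1 in both stages, which cannot pass 2-fold on this scale. Among the other 7131 genes 9.87% were higher and 18.5% lower, and the median difference was -0.11. Genes with a median of both stages averaging 100 FPKM or more were rarely past 2-fold, 2.15% of 975 being higher and 2.36% lower, whereas between 1 and 10 FPKM 15.5% of 2655 were higher and 31.2% lower. The median of the 4-cell stage was 0 for 143 of the higher genes, and that of the 8-cell stage was 0 for 398 of the lower genes. FPKM is a share of each library and no spike-in was used, so less RNA of one gene and more RNA of the others cannot be told apart.

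**Figure D1:**
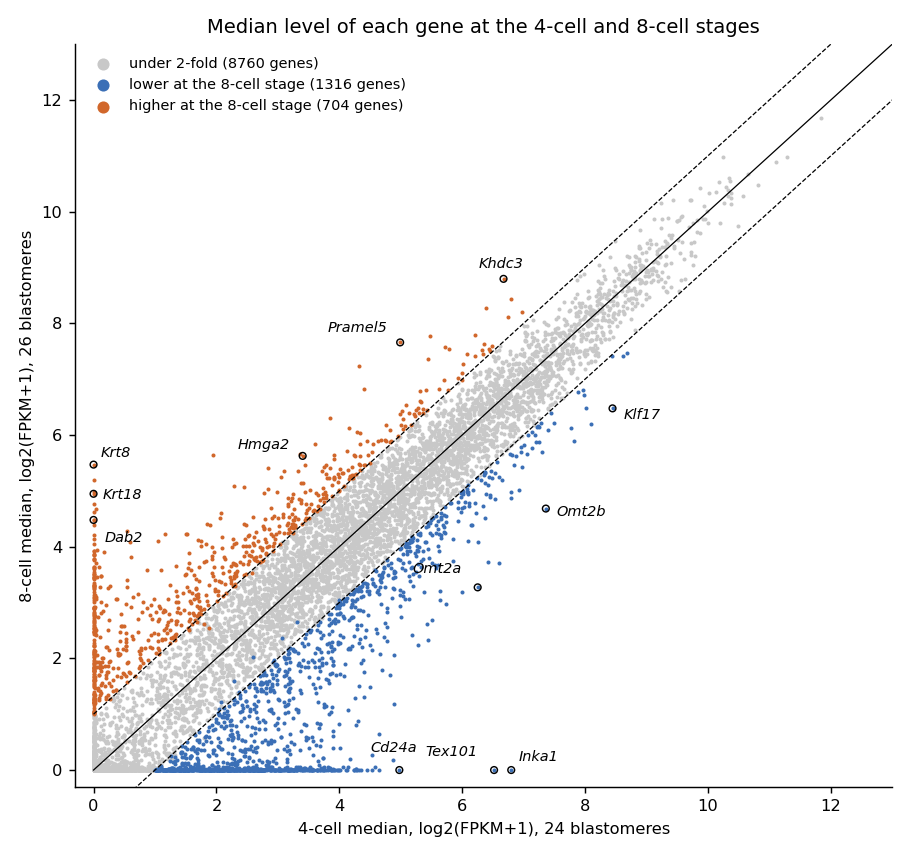
Median level of each of the 10780 genes at the 4-cell stage (x axis) and the 8-cell stage (y axis), both as log2(FPKM+1), with 1 point per gene. Dashed lines mark 2-fold. The 704 higher genes lie above them and the 1316 lower genes below, and Krt8, Krt18, Dab2, Inka1, Tex101 and Cd24a sit on an axis because their median in one stage was 0.

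The spread between blastomeres of a stage was wide. The SD of log2(FPKM+1) between blastomeres had a median over genes of 1.37 in 4-cell and 1.32 in 8-cell blastomeres, so a 2-fold difference was smaller than the usual spread. The difference exceeded the larger of the SDs of both stages for 275 of the 704 higher and 705 of the 1316 lower genes. No gene had ranges that did not overlap when all blastomeres were used. For some genes the 4-cell values also differed by place in the table, seen after the values were known. This is given below for Cldn4, Zfp42, Tbx3, Gata6 and Omt2b. The repeat without gene-poor blastomeres keeps most of the columns concerned, and the column names do not tie them to an embryo. Without the gene-poor blastomeres 731 genes were higher and 1297 lower, of which 516 and 1020 had also been called with all blastomeres, 73.3% and 77.5% of the first calls. The direction of 1 gene, Thap3, turned, from 1.32 to -1.23. Near the threshold, 53 higher and 82 lower genes lay within 0.05 past it, and 69 and 87 genes lay within 0.05 short of it.

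Sequences just upstream of the annotated start are shown for the keratin pair and for the pair of genes with the largest lower difference, with matches to the searched motifs in capitals. All are from RefSeq on GRCm38.p6, the assembly behind the mm10 build of the tables, 5′ to 3′ on the strand of the gene, 100 bases each. Krt8 lies at chr15:101996711-102004342 on the minus strand and the stretch at chr15:102004343-102004442. Krt18, 23.9 kb away, lies at chr15:102028216-102032026 on the plus strand and the stretch at chr15:102028116-102028215. Inka1 lies at chr9:107984223-107985916 on the minus strand and the stretch at chr9:107985917-107986016. Tex101 lies at chr7:24668012-24672050 on the minus strand and the stretch at chr7:24672051-24672150.
Krt8: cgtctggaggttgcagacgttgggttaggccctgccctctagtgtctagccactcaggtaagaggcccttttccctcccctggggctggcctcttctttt
Krt18: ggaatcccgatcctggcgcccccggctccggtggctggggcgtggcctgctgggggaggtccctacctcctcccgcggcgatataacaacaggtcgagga
Inka1: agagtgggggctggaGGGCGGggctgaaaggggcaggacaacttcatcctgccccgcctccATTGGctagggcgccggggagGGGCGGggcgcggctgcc
Tex101: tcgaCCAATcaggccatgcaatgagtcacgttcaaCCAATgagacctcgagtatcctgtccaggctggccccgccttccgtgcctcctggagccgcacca
The stretch of Inka1 held GGGCGG, the GC box, and CCAAT read on the other strand, and that of Tex101 held CCAAT. Neither keratin stretch held a searched motif, but TATAAA was elsewhere in the longer window of Krt8 and GGGCGG in that of Tex101. Promoter windows, which run from 250 bases before to 50 bases after the start, were found for 8610 of the compared genes, 555 of the higher and 1097 of the lower. GGGCGG was in 65.4% of the windows of higher genes, 65.9% of those of lower genes and 64.7% of all. CCAAT was in 36.8%, 40.5% and 40%, the ETS core CCGGAA in 30.5%, 27.1% and 30.9%, and TATAAA in 7.21%, 5.56% and 6.91%, each on either strand. The longer NRF1 and YY1 motifs, which can overlap a GC-rich box, were in 8.65%, 9.94% and 11.5% and in 2.16%, 1.82% and 2.39%. The median GC content was 61%, 61% and 60.7%. A match is a description of these letters and not a site in use.

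The genes furthest above their 4-cell level were led by keratins and membrane proteins. Krt8 ran from 0 through a median of 0 to 73.4 FPKM in the 4-cell blastomeres and from 0 through 43.3 to 209 in the 8-cell blastomeres. It exceeded 1 in 9 of 24 and in 21 of 26 blastomeres, and its difference of medians was 5.47 on the log2(FPKM+1) scale. Its partner Krt18 ran from 0 through 0 to 14.1 and from 0 through 29.8 to 233 FPKM, above 1 in 7 and in 21 blastomeres, with a difference of 4.95. The ranges of both keratins overlapped between stages, while the highest 8-cell values were well above any 4-cell value. At the 8-cell stage 18 blastomeres held both keratins above 1, against 5 at the 4-cell stage. Across the 26 8-cell blastomeres, which share embryos and differ in depth, the correlation of their log2(FPKM+1) values was 0.32 (Pearson) and 0.33 (Spearman). Across the 24 4-cell blastomeres, with the same limits, it was 0.43 and 0.46. Perp, a p53-induced membrane protein of desmosomal junctions, had medians of 0 and 30.5 FPKM, exceeded 1 in 9 and in 23 blastomeres, and had the higher value in the 8-cell blastomere in 82.5% of the 624 pairs of a 4-cell and an 8-cell blastomere.

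For these genes the share of cells differed as well as the level. Dab2, an endocytic adaptor that later marks primitive endoderm, was above 1 in 9 of 24 blastomeres (37.5%, exact 95% interval 18.8% to 59.4%) and in 24 of 26 (92.3%, 74.9% to 99.1%), with medians of 0 and 21.3 FPKM and a highest value of 29.9 and 54.4. The intervals are of Clopper and Pearson and cover counting error only. Grtp1, a TBC domain protein, was above 1 in 8 and in 23 blastomeres and had medians of 0 and 23.5 FPKM. Dap, a death-associated protein, had medians of 0 and 26.1 FPKM, Akr1b8, an aldo-keto reductase, 0 and 20, Bloc1s5, a subunit of a complex for lysosome-related organelles, 0 and 17.4, and Steap3, a ferric reductase, 0 and 16.5. Eprn, a noncoding transcript, had medians of 0.03 and 24.4 FPKM, and its difference was 4.63 with all blastomeres and 1.67 without the gene-poor blastomeres. For the other genes of this group the difference without them was 3.11 to 5.37. A difference of means in place of medians was smaller, 2.87 for Krt8, 3.50 for Krt18, 2.79 for Perp and 2.66 for Dab2.

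Large differences in the share of cells were fewer. The share of blastomeres above FPKM 1 was higher by at least 50 percentage points in 8 genes, 0.0742% of those compared, and lower by at least as much in 62, 0.575%. The 8 genes were Dab2, Krt18, Perp, Grtp1, Coro2a, Pigt, Ubqln2 and D7Ertd143e. D7Ertd143e, a noncoding transcript, exceeded 1 in none of 24 and in 13 of 26 blastomeres, with a highest 4-cell value of 0.77 FPKM. Pigt, a subunit of the GPI transamidase, exceeded 1 in 3 and in 18, Ubqln2, a proteasome shuttle protein, in 4 and in 18, and Coro2a, a coronin, in 6 and in 20. Alg8, a glucosyltransferase of protein glycosylation, exceeded 1 in 3 and in 16, and Platr10, a noncoding transcript, in 4 and in 17. The medians of these last genes at the 8-cell stage were low, from 1.31 FPKM for D7Ertd143e to 9.78 for Alg8.

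**Figure D2:**
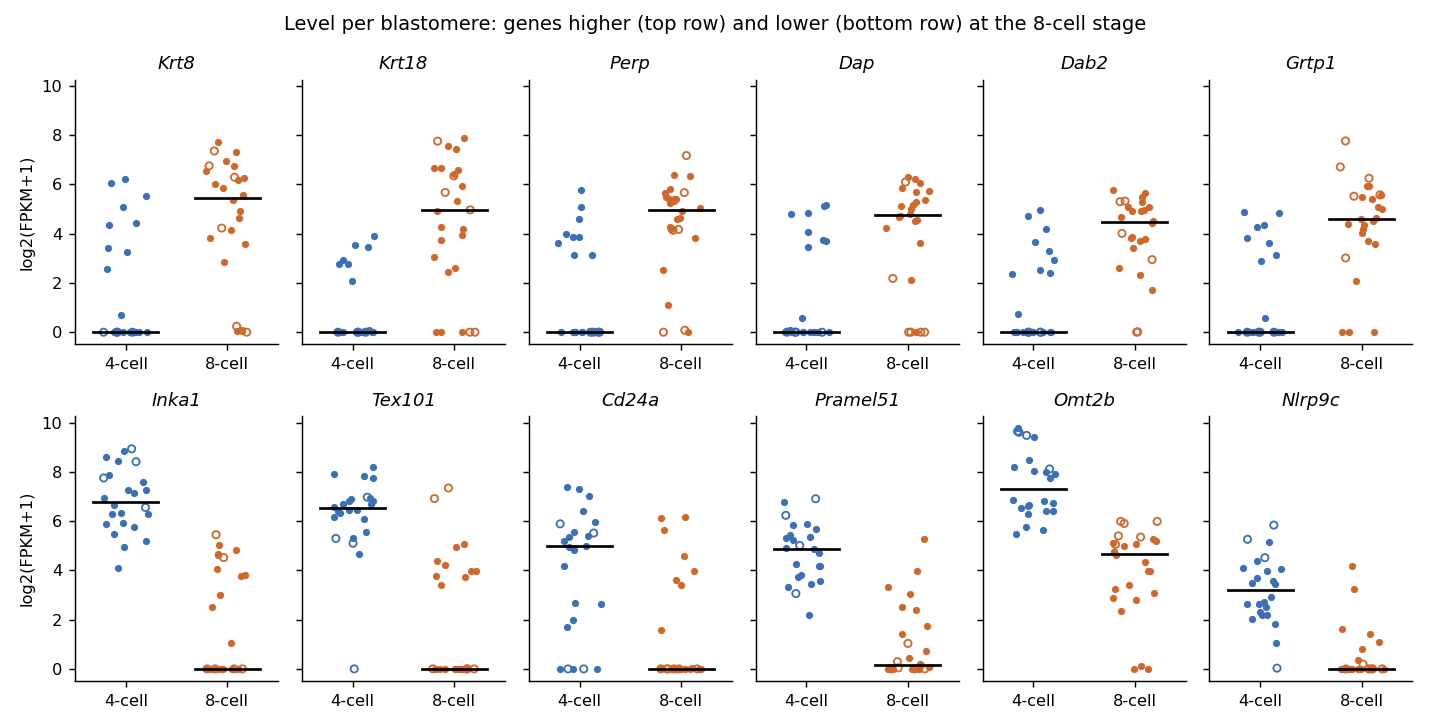
Level of 12 genes in each blastomere as log2(FPKM+1), with 24 4-cell and 26 8-cell blastomeres. Open circles are gene-poor blastomeres and bars are medians. In the top row most 4-cell blastomeres sit at 0 and most 8-cell blastomeres do not, and in the bottom row, Omt2b apart, many 8-cell blastomeres sit at 0.

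Furthest below its 4-cell level with all blastomeres was Inka1, an inhibitor of the kinase PAK4. Its FPKM ran from 16.1 through a median of 110 to 488 in the 4-cell blastomeres, all 24 above 1, and from 0 through 0 to 42.6 in the 8-cell blastomeres, 12 above 1. The 4-cell value was the higher in 98.6% of the 624 pairs, and the difference of medians was -6.79, or -5.96 without the gene-poor blastomeres. Tex101, a surface glycoprotein known from germ cells, ran from 0 through 90.6 to 289 and from 0 through 0 to 162 FPKM. It was above 1 in 23 and in 11 blastomeres. Its difference was -6.52, or -6.63 without the gene-poor blastomeres, where it lay below that of Inka1. The highest 8-cell values of Tex101, 120 and 162 FPKM, came from gene-poor blastomeres, and the other 8-cell blastomeres reached at most 32.7. Pramel51, of a gene family expressed in germ cells and early embryos, was above 1 in all 24 4-cell blastomeres, from 3.60 to 119 FPKM, and in 9 of the 26 8-cell blastomeres, with medians of 28.5 and 0.13. Cd24a, a small surface glycoprotein, had medians of 30.5 and 0 FPKM and was above 1 in 19 and in 8 blastomeres.

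The other genes of the 12 with the largest lower difference encode diverse products. Fem1c and Fbxo47, substrate receptors of ubiquitin ligases, had medians of 22.9 and 0.04 and of 18.5 and 0 FPKM. Cdkn3, a phosphatase that acts on cyclin-dependent kinases, had medians of 20.8 and 0 FPKM. Tnfaip8l2 had 22.1 and 0, Rilpl2 19.3 and 0, Mrap, an accessory protein of melanocortin receptors, 18.2 and 0, the chemokine receptor gene Ccr8 18.9 and 0, and Esp24, of a family of exocrine secreted peptides, 23.9 and 0. By share of cells the largest lower differences beyond these were in Nlrp9c, from 23 of 24 to 5 of 26 blastomeres, Pxt1 from 20 to 4, Efnb2, the ligand ephrin-B2, from 19 to 4, Sh2d3c from 22 to 7, Slc5a4b from 18 to 3 and Prdm14 from 17 to 2. Among the 62 genes lower by at least 50 points were also Ddit3, a stress-induced transcription factor, from 20 to 6, and the secreted factors Fgf3, from 15 to 3, and Fgf4, from 20 to 8.

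**Figure D3:**
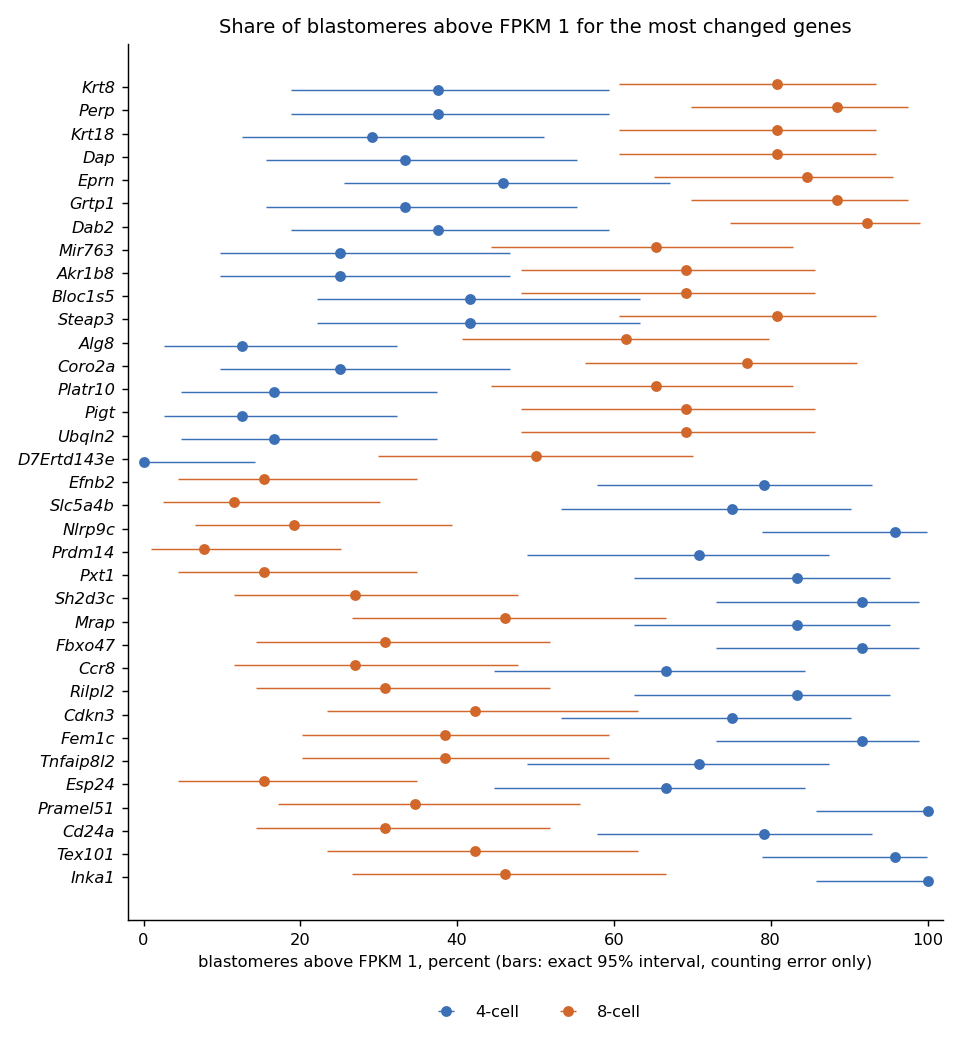
Share of blastomeres above FPKM 1 at the 4-cell stage (24 blastomeres) and the 8-cell stage (26 blastomeres) for the genes with the largest differences by level and by share of cells, ordered by difference of medians. Bars are exact 95% intervals for counting error only. D7Ertd143e has 0 of 24 at the 4-cell stage, and Pramel51 and Inka1 have all 24.

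Several genes of the oocyte were lower at the 8-cell stage, by counts set beside the 6.53% higher and 12.2% lower of all genes. The list of subcortical maternal complex and oocyte Nlrp genes had 13 compared members, 1 higher and 6 lower. Its median difference was -0.72 against 0 over all genes, and -0.40 without the gene-poor blastomeres. The complex lines the cortex of egg and early embryo, which is not said here of every Nlrp gene in the list. The lower share was 46.2%, against 12.2% of all genes and 31.2% of those averaging 1 to 10 FPKM. The median level over members was 3.12 and 0 FPKM. Nlrp9c had medians of 8.25 and 0 FPKM, Nlrp5, a core member of the complex, 5.06 and 0.12, Nlrp14 3.12 and 0, Nlrp4c 3.80 and 0.50, Zbed3 11.1 and 3.28 and Tle6 2.69 and 0.03. The difference of Tle6 was -1.83 with all blastomeres and -0.40 without the gene-poor ones. Khdc3, another member of the complex, went the other way. It ran from 0 through 101 to 600 FPKM in the 4-cell and from 5.92 through 443 to 975 in the 8-cell blastomeres, a 4.39-fold higher median, and its difference of 2.14 was 1.19 without the gene-poor blastomeres. Padi6, with medians of 24.6 and 30.1 FPKM, was under 2-fold, as was Ooep, with 0.65 and 0, whose difference of -0.72 was -1.69 without the gene-poor blastomeres.

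Oocyte nuclear and transcription factors had 20 compared members, none higher and 7 lower, with a median difference of -0.15. The lower share was 35%, against 12.2% of all genes and 18.5% of the 7131 that could pass 2-fold. The median level over members was 1.76 and 0 FPKM, and 31.2% of all genes averaging 1 to 10 FPKM were lower. Omt2b, an oocyte maturation gene, ran from 44.1 through 163 to 867 FPKM at the 4-cell stage and from 0 through 24.7 to 62.4 at the 8-cell stage, a 6.62-fold lower median. In 4-cell columns 1 to 12 Omt2b ran from 44.1 to 115 FPKM, and in columns 13 to 24 from 211 to 867. The 4-cell median of Omt2b thus lies between these groups of columns. Its neighbour Omt2a on chromosome 9 had medians of 75.1 and 8.65 FPKM, 8.69-fold lower. They are related copies, and reads that align to both were not counted, so their shares of the reads are uncertain. Without the gene-poor blastomeres the ranges of 3 genes did not overlap, all of them lower at the 8-cell stage and singled out after their values were seen: Omt2a, Omt2b and Selenos, whose lowest 4-cell values were 21.3, 44.1 and 478 FPKM and highest 8-cell values 18.5, 37.9 and 472. Oog3 had medians of 96.2 and 12 FPKM, and its difference of -3.07 was -1.75 without the gene-poor blastomeres. Npm2, the nucleoplasmin that remodels sperm chromatin, had 31 and 14.7. Dppa3, which protects the maternal genome from demethylation, stayed among the highest genes with medians of 3658 and 3260 FPKM, and the homeobox gene Obox6 had 1313 and 1486.

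The zona and secreted factor genes of the oocyte come next. Of 8 compared, none was higher and 1 lower, Gdf9, a growth factor of the oocyte, with medians of 4.39 and 0 FPKM. In the repeat without gene-poor blastomeres 3 were lower and the median difference of the list was -0.33 in place of 0. Zp3, a zona pellucida protein, had 83.2 and 45.6 FPKM, a difference of -0.85 that passed 2-fold without the gene-poor blastomeres, and Bmp15 had 0.16 and 0. The list of oocyte translation and maternal decay genes had 25 compared, 1 higher and 2 lower, with a median of 0. Btg4, the adaptor that brings the deadenylase to maternal mRNA, had medians of 11.6 and 0.11 FPKM, and Dazl, an RNA-binding protein of germ cells, 1.76 and 0. The difference of Dazl was -1.10 with all blastomeres, -2.19 without the gene-poor ones and -0.81 with means. Tut4, a terminal uridylyltransferase, had 0.01 and 3.40, above 1 in 7 and in 16 blastomeres. The genes of the 2-cell burst had 29 compared, 2 higher and 4 lower, with a median of 0. These were 6.90% and 13.8%, close to the 6.53% and 12.2% of all genes. Pramel31 had medians of 13.6 and 0 FPKM and Tdpoz1 12.1 and 0.45, whereas Pramel5 had 30.8 and 201 and was above 1 in 20 and in 25 blastomeres. Tdpoz2 had 2.58 and 20.3, and its difference of 2.57 was 0.95 without the gene-poor blastomeres. Zfp352, Tcstv1 and Zscan4d had medians of 0 in both stages.

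Pluripotency regulators divided between the directions. Of 31 compared, 7 were higher (22.6%, against 6.53% of all genes) and 5 lower (16.1%, against 12.2%), and the median difference was 0.05. Pou5f1, the gene of OCT4, ran from 0 through 41.5 to 87.6 FPKM in the 4-cell and from 27.8 through 110 to 178 in the 8-cell blastomeres, a 2.66-fold higher median, and was above 1 in 21 of 24 and in all 26. Zfp42, a target and marker of the pluripotent state, had medians of 33 and 92.2 FPKM, Tbx3, a T-box factor, 7.54 and 40, Tfcp2l1, a factor of the naive state, 0 and 8.81, Utf1 10.5 and 31.3, the orphan receptor Esrrb 3.06 and 8.22 and the RNA-binding Lin28a 3.06 and 7.79. The differences of Utf1 and Esrrb were 1.53 and 1.2 with all blastomeres and 0.85 and 0.77 without the gene-poor ones. In 4-cell columns 1 to 12 Zfp42 ran from 21.4 to 110 FPKM and Tbx3 from 7.17 to 29.8. In columns 13 to 24 Zfp42 ran from 0 to 33.4 and Tbx3 from 0 to 7.91. Lower were Klf17, a zinc finger factor of early cleavage, with 194 through 347 to 737 FPKM at the 4-cell stage and 0.24 through 88.0 to 252 at the 8-cell stage, Prdm14, a chromatin regulator of pluripotency, with medians of 9.89 and 0, and Fgf4, the ligand that later drives primitive endoderm, with 8.53 and 0. The 4-cell value of Klf17 was the higher in 98.7% of the pairs. Nanog had medians of 21.2 and 7.93 FPKM but was above 1 in 18 of 24 and in 21 of 26 blastomeres, and the 4-cell value was the higher in 63.3% of the pairs. Etv5 had 2.34 and 0.01 FPKM.

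Among genes of the trophectoderm and Hippo signalling, 28 were compared, 4 higher and 3 lower, with a median of 0. These were 14.3% and 10.7%, against 6.53% and 12.2% of all genes. Amotl2, an angiomotin that binds the Hippo effector YAP, had medians of 0 and 7.51 FPKM, Elf3, an epithelial ETS factor whose difference of 1.62 was 3.15 without the gene-poor blastomeres, 4.80 and 15.1, Id3 72.9 and 219 and Fgfr2, the receptor of FGF signals in trophectoderm, 1.52 and 4.33. Lower were Mob1b, an activator of LATS kinases, with 17.4 and 3.68, Id2, with 1.44 and 0, and the kinase gene Lats1, with 1.04 and 0, whose difference of -1.03 was -0.63 without the gene-poor blastomeres. Tead4, the DNA-binding partner of YAP, had 47.1 and 70.6 FPKM, Yap1 10.5 and 11.9 and Gata3 0 and 0.24, all under 2-fold. Cdx2, the trophectoderm homeobox gene, was listed in the 8-cell table only, above 1 in 4 of 26 blastomeres and at most 48.2 FPKM, and was not compared.

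Primitive endoderm genes had 10 compared, 3 higher and 1 lower, with a median difference of 0.26 that was 0 without the gene-poor blastomeres. The shares were 30% and 10%, against 6.53% and 12.2% of all genes and 15.5% and 31.2% of those averaging 1 to 10 FPKM. The median level over members was 2.60 and 4.50 FPKM. Gata6 ran from 0 through 6.40 to 18.4 FPKM in the 4-cell and from 4.82 through 25 to 77.8 in the 8-cell blastomeres, above 1 in 15 of 24 and in all 26, with a difference of 1.83 that was 1.12 without the gene-poor blastomeres. In 4-cell columns 1 to 16 Gata6 ran from 0.21 to 18.4 FPKM, and in columns 17 to 24 from 0 to 0.55. The receptor gene Fgfr1 had medians of 0 and 1.39 FPKM, above 1 in 4 and in 15, and Dab2 is given above. Gata4 had 11.9 and 5.28 FPKM, and its difference of -1.04 was -0.68 without the gene-poor blastomeres. By medians the ligand Fgf4 was lower, and the receptors Fgfr1 and Fgfr2, both at low levels, were higher at the 8-cell stage. The smallest difference of Fgfr1 under the alternatives was 0.90, short of 2-fold.

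**Figure D4:**
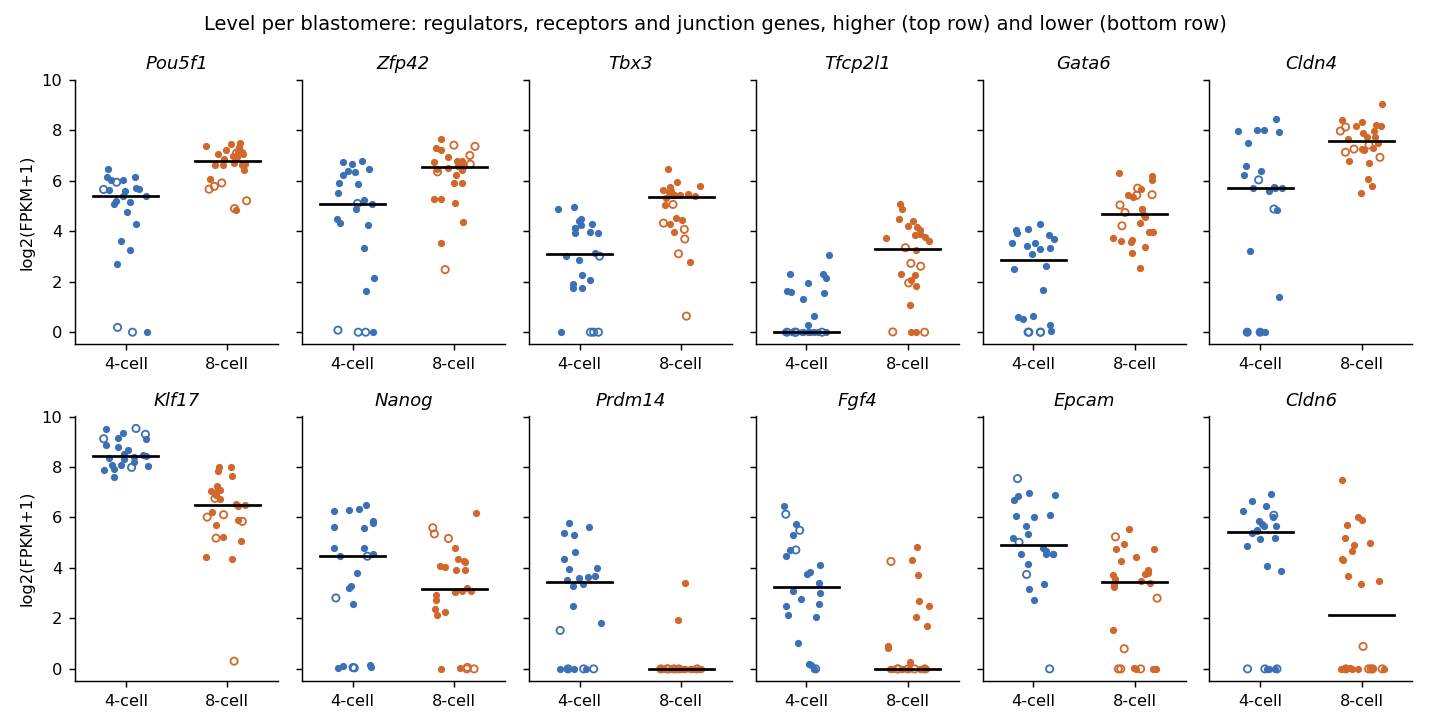
Level of 12 lineage regulators and junction genes in each blastomere as log2(FPKM+1), drawn as in the plot of the most changed genes. All 26 8-cell blastomeres hold Pou5f1, Gata6 and Cldn4 above 1, and all 24 4-cell blastomeres hold Klf17.

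Genes of polarity, adhesion and junctions, 45 compared, were higher in 5 cases and lower in 3, with a median of 0.01. These were 11.1% and 6.67%, against 6.53% and 12.2% of all genes and 15.5% and 31.2% of those averaging 1 to 10 FPKM. The median level over members was 5.20 and 6.40 FPKM. Beside the keratins, Cldn4, a claudin of tight junctions, ran from 0 through 51.8 to 345 FPKM in the 4-cell and from 45.1 through 189 to 527 in the 8-cell blastomeres, above 1 in 19 of 24 and in all 26. In 4-cell columns 1 to 12 Cldn4 ran from 46.9 to 345 FPKM, and in columns 13 to 24 from 0 to 64.7. Actg1, a cytoplasmic actin, had medians of 63.4 and 154 FPKM. Cldn6, another claudin, was lower, with 42.0 and 5.11 FPKM, and its difference of -3.30 was -1.46 without the gene-poor blastomeres. The adhesion molecule gene Epcam had 28.9 and 9.92, and the polarity gene Pard3 1.62 and 0.01. The pumps and water channels of the later blastocoel had 9 compared, none higher and 3 lower, with a median of -0.33. The lower share was 33.3%, against 12.2% of all genes. Aqp11, an intracellular aquaporin, had medians of 120 and 31.3 FPKM, and the beta subunits of the sodium pump Atp1b3 and Atp1b2 had 252 and 104 and 3.73 and 0.

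Of 70 mitotic cell cycle genes 6 were higher and 10 lower, 8.57% and 14.3% against 6.53% and 12.2% of all genes, with a median difference of -0.30 and -0.25 without the gene-poor blastomeres. E2f5 had medians of 15.7 and 0.03 FPKM and Rb1, the retinoblastoma protein, 7.22 and 0, above 1 in 18 and in 4 blastomeres. Wee1, the kinase that holds CDK1 inactive, had 17.8 and 4.30, the phosphatase gene Cdc25c 47.9 and 15.2, the CDK inhibitor gene Cdkn1a 125 and 41.9, Aurkb 72.8 and 26.5, and the kinetochore genes Cenpa and Spc25 151 and 57.3 and 167 and 66.7. Higher were, among others, Ccnd1, with 8.50 and 21.4, and Ube2s and Fzr1 of the anaphase-promoting complex, with 30.7 and 81.6 and 2.10 and 7.32. Of 56 DNA replication genes 7 were higher and 2 lower, with a median of -0.02. The helicase subunits Mcm4, Mcm5 and Mcm7 had medians of 38.2 and 83.2, 14.8 and 38.5, and 51.2 and 126 FPKM, and the flap nuclease gene Fen1 14 and 36.6. Rfc4, a clamp loader subunit, had 9.83 and 42.9, but its difference of 2.02 was 0.45 without the gene-poor blastomeres. Lower were Gins2, with 3.89 and 0.145, and Cdc45, with 147 and 69.5, a difference of -1.07 that was -0.84 without the gene-poor blastomeres. Gins2 was above 1 in 13 of 24 and in 12 of 26 blastomeres. Its difference was -2.08 by medians and -0.40 by means.

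More splicing and translation factors were higher than lower. Splicing factors had 86 compared, 7 higher and 1 lower, with a median difference of 0.23 and 0.24 without the gene-poor blastomeres. Srsf2, an SR protein, ran from 9.73 through 54.2 to 124 FPKM and from 23.9 through 186 to 584, a 3.43-fold higher median, and the 8-cell value was the higher in 90.5% of the pairs. Sf3b3, of the U2 particle, had medians of 18.4 and 65.6 FPKM and Hnrnpa0 3.27 and 11.5, whereas Snrnp25, of the minor spliceosome, had 258 and 88.6. Translation factors had 59 compared, 6 higher and 2 lower, with a median of 0.09. The elongation factor gene Eef2 had 124 and 295 FPKM, Eif4b 39.4 and 95.4, Eif4g1 26.0 and 58.1 and Eif4a2 48.5 and 112, and lower were Eif4e3, with 2.75 and 0, and Eif5a2, with 2.74 and 0. Shares of 8.14% and 10.2% of these lists were higher, against 6.53% of all genes, while 1.16% and 3.39% were lower, against 12.2%. Of the 7131 genes that could pass 2-fold 9.87% were higher and 18.5% lower. The median level over members was 55 and 75.1 FPKM for splicing and 127 and 169 for translation factors. Among all genes averaging 10 to 100 FPKM 6.81% were higher and 9.73% lower, and at 100 or more 2.15% and 2.36%. Whether the higher share of the splicing factors exceeds that of other genes thus depends on the genes set beside it.

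None of 87 cytoplasmic ribosomal protein genes was past 2-fold, and their median difference was 0.16, or 0.05 without the gene-poor blastomeres. Their largest differences were 0.78 for Rpl8, 0.62 for Rps4x and -0.52 for Rpl3l. Rpl8 had medians of 337 and 579 FPKM. Rps4x was above 1 in 20 of 24 4-cell and in all 26 8-cell blastomeres, and its difference of means was 2.07. Rpl3l had medians of 0.431 and 0, and its difference was -1.36 without the gene-poor blastomeres. Ribosome biogenesis factors had 83 compared, 6 higher and 2 lower, with a median of -0.09. These were 7.23% and 2.41%, against 6.53% and 12.2% of all genes. Nol6 had medians of 5.80 and 18.9 FPKM, Polr1e, of RNA polymerase I, 67.7 and 25.3 and Rrp12 12.2 and 4.32, the last with a difference of -1.32 that was -0.91 without the gene-poor blastomeres. Mitochondrial ribosomal proteins had 79 compared, 3 higher and 1 lower, among them Mrps35, with 14 and 36.2 FPKM, Mrps2, with 11.6 and 29.3, and Mrpl41, with 30.5 and 8.31. Without the gene-poor blastomeres 1 was higher and 3 were lower. The respiratory chain had 76 compared, 3 higher and 1 lower. Cox6b2, the testis form of a cytochrome oxidase subunit, was the lower one, with 7.93 and 0 FPKM, and Sdhc and Ndufs1 were higher, with 10.8 and 23.9 and 17.9 and 37.7. Without the gene-poor blastomeres none was higher and 2 were lower. The proteasome had 48 compared, none higher and 2 lower: Psme2, an interferon-inducible activator subunit, with 13.2 and 0.03, and the immunoproteasome subunit gene Psmb10, with 34.4 and 9.51, while Psmd2 had 73.9 and 121. Glycolysis and monocarboxylate genes had 32 compared, 2 higher and 2 lower. The higher were Fbp2, a fructose bisphosphatase, with 110 and 343 FPKM, and Hk1, with 2.21 and 5.77. The lower were Pdk3, with 6.25 and 0.01, and Tpi1, with 2.74 and 0. Shares higher and lower were 3.80% and 1.27% of mitochondrial ribosomal proteins and 3.95% and 1.32% of the respiratory chain. They were 0% and 4.17% of the proteasome and 6.25% and 6.25% of glycolysis genes, against the same 6.53% and 12.2%.

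Chromatin, stress and apoptosis genes held a few large differences. Their counts stand beside the 6.53% higher and 12.2% lower of all genes. Shares higher and lower were 0% and 5.77% of histone modifiers and 5.56% and 11.1% of DNA methylation and demethylation genes. They were 2.78% and 5.56% of heat shock chaperone genes. Of 52 histone modifiers none was higher and 3 were lower: the testis bromodomain gene Brdt, with medians of 15.1 and 0.32 FPKM, Ezh1, a Polycomb methyltransferase, with 13 and 2.06, and Prmt6, with 2.79 and 0.06. The median difference of the list was 0.12, and without the gene-poor blastomeres 3 were higher and 3 lower. Of 18 genes of DNA methylation and demethylation 1 was higher and 2 lower, and without the gene-poor blastomeres 3 and 3. Dnmt1, the maintenance methyltransferase, had 7.72 and 2.26 FPKM, Gadd45b 9.50 and 0 and Smug1, a DNA glycosylase, 0.475 and 2.80, with a difference of 1.34 that was 0.77 without the gene-poor blastomeres. The reads of Dnmt1 were not split by transcript, so its oocyte and somatic forms cannot be told apart. Of 36 heat shock chaperone genes 1 was higher and 2 lower, with a median of 0.24. Hspa5, the chaperone BiP of the endoplasmic reticulum, had 274 and 72.4 FPKM, a 3.79-fold lower median, Hspa2 1.11 and 0 and the transcription factor gene Hsf2 14.9 and 31.4. Without the gene-poor blastomeres none was higher and 1 was lower. Of 32 p53 targets and apoptosis genes 3 (9.38%) were higher and 5 (15.6%) lower. Beside Perp these were Phlda3, with 0 and 7.30 FPKM and a difference of 3.05 that was 1.43 without the gene-poor blastomeres, and Ccng1, with 3.71 and 9.59, against Sesn1, with 9.24 and 0.03, the BH3 protein genes Bid, with 52.3 and 6.84, and Bcl2l11, with 4.11 and 0.495, Apaf1, with 5.79 and 0.85, and Cdkn1a.

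**Figure D5:**
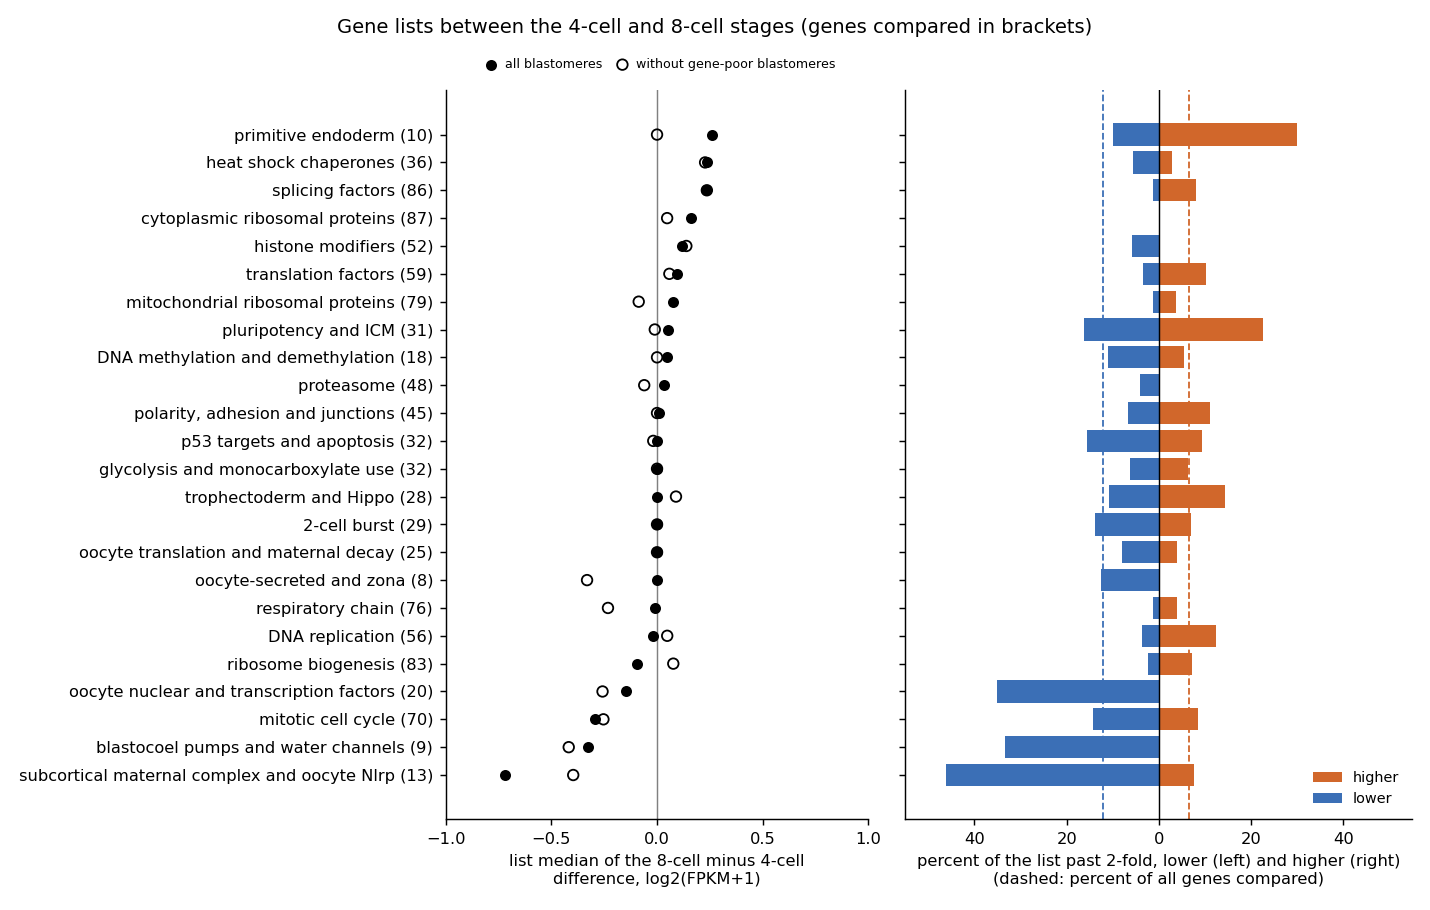
Left, median 8-cell minus 4-cell difference of log2(FPKM+1) over the compared genes of each list, with all blastomeres (filled) and without the gene-poor ones (open). Right, percent of each list past 2-fold, with dashed lines at the 6.53% higher and 12.2% lower of all genes compared. Subcortical maternal complex and oocyte Nlrp genes have a median of -0.72 with all blastomeres and -0.40 without the gene-poor ones, where pumps and water channels lie lower, at -0.42.

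Short noncoding genes need a separate reading. Mir763 was among the 12 genes with the largest higher difference, with medians of 0 and 21.4 FPKM and values above 1 in 6 of 24 and in 17 of 26 blastomeres. It is 120 bases long and lies within Hmga2, a chromatin protein gene that itself had medians of 9.58 and 48.3 FPKM, a difference of 2.22. At the median depth FPKM 1 on Mir763 stood for 1.85 fragments, and the libraries, which hold reads of poly(A) RNA without strand, do not separate it from Hmga2. The primary transcript of the miR-17 cluster on chromosome 14, Mir17hg, had medians of 0 and 12.7 FPKM, above 1 in 9 and in 19 blastomeres, and Mir17, Mir18 and Mir20a were listed in the 8-cell table only, each above 1 in 5 of 26 blastomeres, as was Mir19a, above 1 in 4. The mature forms of these hairpins, which were not themselves measured, are given from RefSeq with the seed, bases 2 to 8, in capitals, because they show which hairpins of the transcript share a seed.
miR-763: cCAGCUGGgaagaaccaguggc
miR-17-5p: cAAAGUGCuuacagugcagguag
miR-20a-5p: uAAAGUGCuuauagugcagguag
miR-18a-5p: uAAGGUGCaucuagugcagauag
miR-19a-3p: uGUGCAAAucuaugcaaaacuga
miR-19b-3p: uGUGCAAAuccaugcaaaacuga
The seed of miR-17-5p and miR-20a-5p is the same, and so is that of miR-19a-3p and miR-19b-3p, the latter from the hairpin of Mir19b-1 in the same cluster. Of 82 compared small nucleolar RNA genes 15 were higher and 3 lower, against 6.53% and 12.2% of all genes, and 81 overlap another gene. At their median length of 77 bases FPKM 1 stood for 1.19 fragments. The 8-cell libraries were the deeper, with a median total of 17.2 M fragments against 13.4 M. An effect of depth on these calls was not tested. Among the 15 higher ones the overlapping gene was itself higher in 2 cases, both within Eif4a2. Snora65, within Rpl12, had medians of 0 and 13.5 FPKM while Rpl12 differed by 0.18. Of 28 Snora genes 5 were higher and 2 lower with all blastomeres, and 9 and 0 without the gene-poor ones. Of 54 Snord genes 10 were higher and 1 lower with all blastomeres, and 14 and 1 without the gene-poor ones.

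Genes that best separated the stages pair by pair are given next, picked after their values were seen. Over the 624 pairs, the 8-cell value was the higher in at least 80% for 156 genes and the 4-cell value for 244. Ntmt1, an N-terminal methyltransferase, had the higher 4-cell value in 98.9% of pairs, with 109 through 218 to 444 FPKM and 0 through 68.4 to 133. Zscan5b had it in 96.3%, with medians of 226 and 58.3. In the other direction Isyna1, the first enzyme of inositol synthesis, had the higher 8-cell value in 96.8% of pairs with medians of 604 and 1135 FPKM, a 1.88-fold difference below the 2-fold line. Zfp706 had it in 95.7%, the cochaperone gene Dnaja1 in 94.9% and Hmga2 in 94.1%. Of 931 genes above 1 in every blastomere of both stages, 11 were higher and 22 lower, among the latter Taf9, with 408 and 176, and Dnajb9, with 392 and 169.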

How the data were processed

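Single blastomeres were measured by Smart-seq2 with Nextera XT libraries and paired reads of 100 nt. The authors aligned them to mm10 with STAR (2.5.1b, per the labels), kept unique alignments, counted them with HTSeq on RefSeq genes and deposited FPKM per gene and blastomere; the lengths and totals used are not given in the sources used here. The stage of each table was taken from the paper. The repeat tables were not used here.

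Entrez ids were named through RefSeq on GRCm38.p6 (10772 of the 10780 compared). Medians of log2(FPKM+1) were compared with a pseudocount of 1, a threshold of FPKM 1 in at least 5 blastomeres and a call at 2-fold. The genes and the 26 lists were chosen with earlier results of these data known. Named are the 12 largest differences called in each direction with and without gene-poor blastomeres, the next 6 by share of cells, and the 3 largest of each list; other list members are given for their role. A few genes that the rule names are not reported here. Depth was estimated from genes with 1 curated transcript: 90.6% to 96.4% of their values from 0.5 to 10 fragments lay within 0.1 of a whole number. Reads carry no molecular identifiers. The calls and the depth estimate were tested on simulated data (Python 3.11.15, numpy 2.4.6, pandas 2.3.3). For the calls, the simulated blastomeres were independent, held no zeros, spread less than the real ones and had 4-fold changes. That test checks the code and does not show how reliable the calls are. No test between stages was made, because the columns name no embryo and each stage counts as 1 sample. The names of 8 list genes matched no RefSeq symbol. Alternatives were another pseudocount, filters, scalings, the mean, a stricter fold, and leaving out blastomeres.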

Additional observations from a re-analysis of the deposited data

Results flagged for a closer look

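Genes listed for 1 stage alone took no part in the comparison, yet some held signal. For the 4-cell blastomeres there were 36 such genes above FPKM 1 in 5 or more of the 24, led by Cfap126 in 11, Frmpd1os in 10 and Ripk3, a kinase of necroptosis, in 9. For the 8-cell blastomeres there were 13 in 5 or more of the 26, led by Cryab, Slc25a18, Slc52a3 and Slco2a1 in 7 each. What drew attention was signal in rows that the comparison left out. Every gene listed for a stage had a value above 0 in at least 1 of its blastomeres, and 1642 genes of the 4-cell and 2301 of the 8-cell listing never exceeded FPKM 1.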

How the results depend on the processing

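The counts of 704 higher and 1316 lower genes stayed within 1.5 times under the alternatives that kept the 2-fold rule. The higher count was 1018 and the lower 1909 with a pseudocount of 0.1, 951 and 1516 with blastomeres rescaled to an equal sum, 756 and 1204 with median-of-ratios size factors, 620 and 919 with means (387 of the 704 and 706 of the 1316 kept their call, and the difference of 1 and 9 turned), 616 and 1439 without the columns named NA, and 568 and 929 for genes above 1 in at least 25 blastomeres. At 4-fold 188 genes were higher and 487 lower, and by a 50-point change in the share of cells 8 and 62. With each blastomere left out in turn there were 644 to 784 higher and 1227 to 1431 lower genes, with 784 and 1227 without the 8-cell blastomere of lowest depth. The median of all genes was 0 under the other alternatives and -0.07 with means and with the filter of 25 blastomeres. Over the 103 named genes none changed sign while past 2-fold under the alternatives run, and with a pseudocount of 0.1 62 moved by more than 1 SD between blastomeres, as did 12 with means and 1, Eprn, without the gene-poor blastomeres. No paired analysis was possible because no column name gives an embryo or a replicate number. Depth limits low genes most, above all in the 8-cell blastomere of 2.34 M fragments.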

Other observations

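Among 184 sets of 8 or more compared genes that share the start of their symbol, the following were picked after their values were seen, and their counts stand beside the 6.53% higher and 12.2% lower of all genes. Of 33 compared Vps genes, most of which act in the sorting of membrane proteins to lysosomes or between endosomes and the Golgi, 9 were higher at the 8-cell stage and none lower, with a median difference of 0.47. In the 20 and 20 blastomeres that were not gene-poor 7 were higher and 2 lower, Vps29 at -1.02 and Vps37c at -2.50, with a median of 0.45. Vps52 had medians of 12.7 and 43.3 FPKM, Vps18 0.02 and 5.75 and Vps50 4.38 and 15.1. The difference of Vps41 was 1.04 with all blastomeres and 0.67 without the gene-poor ones. Of 10 compared Chmp genes, which encode parts of the ESCRT-III membrane scission complex, 1 was higher, Chmp4c, with 0 and 10.3 FPKM, and the family median was 0.60.

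Of 17 compared Fbxw genes, F-box proteins with WD repeats, 1 was higher and 7 were lower, with and without the gene-poor blastomeres, while the median difference was -0.55 with all and -0.07 without them. The 7 were Fbxw14, Fbxw15, Fbxw16, Fbxw19, Fbxw24, Fbxw27 and Fbxw28, related copies that only uniquely aligned reads tell apart. Fbxw16 had medians of 15.1 and 0 FPKM and was above 1 in 17 of 24 and in 4 of 26 blastomeres, and Fbxw24 had 48.7 and 7.24, with a difference of -2.86 that was -1.57 without the gene-poor blastomeres. On chromosome X, 9.42% of 361 genes were higher and 8.86% lower.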
